A study of Mus musculus with 18 samples.

Results

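Checkpoint ligands and ligands of natural killer (NK) and T cell receptors were followed in mouse lung cancer cells with altered DSTYK, a serine/threonine and tyrosine protein kinase. The set was given as 10 gene names, of which Cd155 is an older name of Pvr, so it held 9 genes of the 36047 with a listed transcript: Cd274, Cd276, Cd80, Pvr, Nectin2, Lgals9, Cd47, Ulbp1 and Serpinb9. RNA was sequenced from LLC, a line the labels call lung adenocarcinoma of C57BL/6 mice, and from UN-SCC679, called lung squamous carcinoma of A/J mice. There were 18 libraries in 6 groups of 3. In LLC, cells with sh3 in TPLKO were set against cells with empty TPLKO, and the same pair was made in UN-SCC679. All of these groups, empty vector included, received doxycycline. In UN-SCC679 without doxycycline, cells with OE_DSTYKwt in pLENTI6 were set against cells with empty pLENTI6. The design concerns lowered and raised DSTYK. Each arm is a vector-bearing cell population with 1 hairpin or 1 construct, and the labels do not say whether it is a clone or whether replicates were separate cultures.

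Tumour cells display proteins that T and NK cells read as signals to stop or to attack. Cd274 encodes PD-L1, which binds PD-1 on T cells and restrains them, and Cd80, Cd276 and Cd274 all belong to the B7 family. Pvr and Nectin2 are bound by an activating receptor, CD226, and by the inhibitory receptor TIGIT, galectin-9 from Lgals9 binds TIM-3, CD47 holds off phagocytes through SIRPα, and the protein of Ulbp1 is a mouse ligand of the activating NK receptor NKG2D. Serpinb9 encodes an intracellular inhibitor of granzyme B, the protease that cytotoxic cells deliver into their targets. It is not a ligand, and stands here as the target cell's own protection.

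The libraries held 40525385 to 46528071 estimated counts. Dstyk, the targeted gene, averaged 23.6 ± 0.790 CPM (normalised counts relative to library size) in LLC sh3 cells and 42.5 ± 2.06 CPM in LLC empty TPLKO cells, 25.9 ± 0.898 CPM in UN-SCC679 sh3 cells and 36.9 ± 1.02 CPM in UN-SCC679 empty TPLKO cells, and 37.6 ± 0.742 CPM in OE_DSTYKwt cells and 30.8 ± 1.56 CPM in empty pLENTI6 cells (SD, n = 3 each). Dstyk RNA in OE_DSTYKwt cells was thus above that of its own empty vector, but near the level of UN-SCC679 empty TPLKO cells. The first library of empty pLENTI6 stood apart from the others of its group, with a mean chi-square per gene of 12.2 and 13.8 against them, where no other pair of replicates exceeded 5.05. The number of members called between OE_DSTYKwt and empty pLENTI6 was 5 with it and 5 without it. Over all genes, 4153 were called with that library and 4938 without it. Markers followed the labels' cell types only in part. Krt5, a squamous keratin, was at or near 0 in UN-SCC679, at up to 0.0327 TPM (a scale per transcript length) in the group means. The 5 squamous genes listed still summed to 31.8 to 73.6 TPM in UN-SCC679 libraries, against at most 0.102 TPM in LLC. In UN-SCC679, 2 or 3 of them reached 1 TPM in a group mean. Nkx2-1, a transcription factor of lung adenocarcinoma, averaged 28.1 to 42.1 TPM in the UN-SCC679 groups, against at most 0.0259 TPM in the LLC groups. Of 5 lung adenocarcinoma lineage genes listed, Nkx2-1 alone reached 1 TPM in UN-SCC679 group means. The cells are therefore called by their line names. Leukocytes also express Cd80 and Cd274, so their markers were read as well. The 10 markers summed to 3.42 to 9.20 TPM per library, with 1 or 2 of them reaching 1 TPM in a group mean, and Ptprc, which encodes CD45, was at no more than 0.0591 TPM in any group mean.

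The promoters shown are those of members whose levels moved far or apart from each other in the results that follow. Of the 9 genes, 8 (all but Pvr) had an entry in the RefSeq promoter table of GRCm38.p6, which spans 250 bases before to 50 bases after the start site. The 150 bases immediately before the start site are printed 5′ to 3′ on the gene's strand, with capitals for the motif matches. The windows are chr19:29367288-29367437 (plus strand) for Cd274, chr7:19749574-19749723 (minus strand) for Nectin2, chr16:38458783-38458932 (plus strand) for Cd80, chr11:78984925-78985074 (minus strand) for Lgals9 and chr13:33004391-33004540 (plus strand) for Serpinb9.
Cd274: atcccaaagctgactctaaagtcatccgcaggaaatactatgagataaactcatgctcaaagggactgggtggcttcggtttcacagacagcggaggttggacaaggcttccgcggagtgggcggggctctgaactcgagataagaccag
Nectin2: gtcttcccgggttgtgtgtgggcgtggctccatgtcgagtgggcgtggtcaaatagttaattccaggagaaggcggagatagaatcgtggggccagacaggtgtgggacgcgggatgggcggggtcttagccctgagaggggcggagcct
Cd80: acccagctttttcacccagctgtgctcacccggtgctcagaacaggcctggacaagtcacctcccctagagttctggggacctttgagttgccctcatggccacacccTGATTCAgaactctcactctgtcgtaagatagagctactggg
Lgals9: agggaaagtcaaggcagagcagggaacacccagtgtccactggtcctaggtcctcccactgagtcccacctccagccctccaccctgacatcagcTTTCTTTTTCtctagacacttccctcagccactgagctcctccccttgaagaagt
Serpinb9: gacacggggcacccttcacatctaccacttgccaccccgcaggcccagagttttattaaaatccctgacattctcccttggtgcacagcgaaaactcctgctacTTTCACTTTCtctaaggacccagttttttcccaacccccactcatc

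Motifs were searched on both strands of the 300 bases, as AP-1 (TGANTCA), kB (GGGA, N and TTTCC in a row), the interferon-stimulated response element or ISRE (GAAA, NN and GAAA in a row) and GAS (TTCNNNGAA). They do not overlap in the printed windows. Lgals9 had an ISRE match beginning 55 bases before its start site and another beginning 15 bases after it, Serpinb9 had an ISRE match beginning 46 bases before its start, and Cd80 had an AP-1 match beginning 42 bases before its start. The letters of the ISRE occurred in 3.44% of all 32851 promoters of the table, those of AP-1 in 7.81%, those of kB in 0.411% and those of GAS in 8.3%. Neither kB nor GAS letters were found in the windows of the 8 genes, and none of the motifs was found in those of Cd274 and Nectin2. Such matches describe letters and do not show binding.

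Per length of transcript, Cd47 was the most abundant member in LLC sh3 cells (92.4 TPM), in LLC empty TPLKO cells (80.7 TPM) and in empty pLENTI6 cells (41.6 TPM). Lgals9 led in UN-SCC679 sh3 cells (103 TPM) and OE_DSTYKwt cells (47.6 TPM), and Serpinb9 in UN-SCC679 empty TPLKO cells (60.8 TPM). Cd80 was the lowest member in all 6 groups, between 0.0338 and 1.32 TPM. Cd274 was also low, between 1.80 and 6.30 TPM. Ordered over the groups, Nectin2, Lgals9 and Serpinb9 had no neighbouring groups with overlapping libraries. Cd274 stood alone in LLC sh3 cells, while its other 5 groups each overlapped the next in order. For Pvr, the libraries of LLC empty TPLKO and UN-SCC679 sh3 overlapped, and for Cd47 those of empty pLENTI6 and UN-SCC679 empty TPLKO. For Cd276, those of LLC sh3 and LLC empty TPLKO overlapped, as did those of OE_DSTYKwt and UN-SCC679 empty TPLKO.

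**Figure D1:**
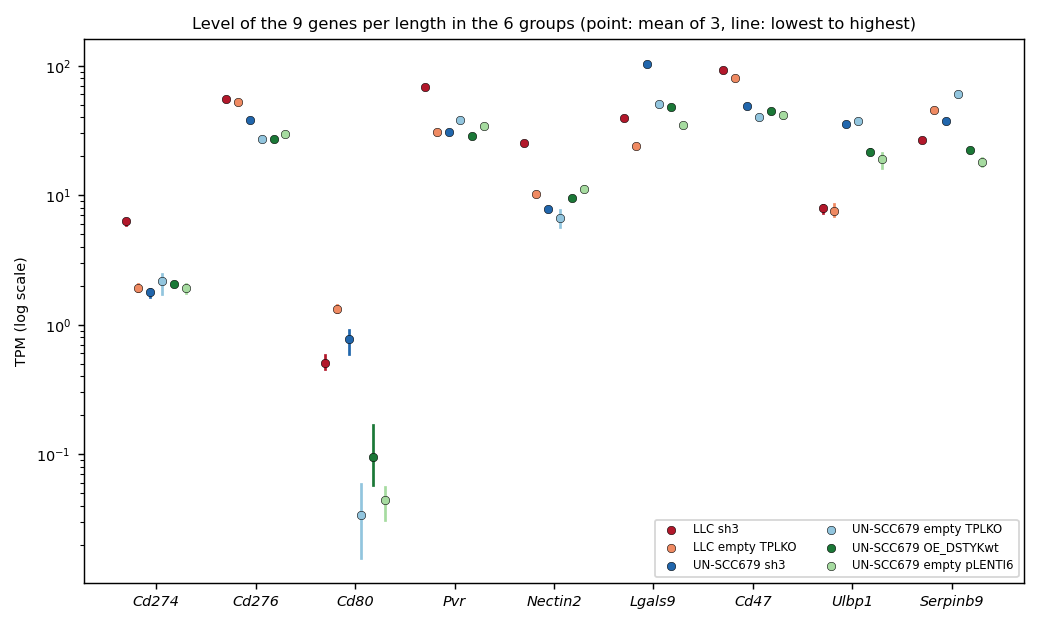
Level of each of the 9 genes in TPM (log axis) in the 6 groups; each point is the mean of 3 libraries and its line runs from the lowest to the highest library. Cd80 lies lowest throughout and Cd274 is highest in LLC sh3 cells, at 6.30 TPM on average.

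In LLC, sh3 cells had more RNA of most surface ligands in the set. Cd274, Nectin2 and Pvr were each more than 2-fold higher, Lgals9, Cd47 and Cd276 rose by less, Cd80 and Serpinb9 fell, and Ulbp1 did not pass the test. In numbers, 6 members were called higher and 2 lower of 9 tested, by edgeR's quasi-likelihood test with Benjamini-Hochberg adjustment over all genes at an adjusted p under 0.05. Over all 13767 genes tested in that comparison, 72.6% were called, 36.2% higher and 36.4% lower, so that most genes, like most members, passed, while calls of at least 2-fold made up 12.2% of all genes. Libraries of the groups did not overlap for 8 of the 9 members, against 75.7% of all genes tested. The members' median log2 change was 0.38 and their median absolute change 0.77, against 0.0099 and 0.35 over all genes tested. The members were chosen with earlier results of these data known, so such medians and shares are description only. In UN-SCC679, sh3 cells again had more Lgals9, Cd47 and Cd276 and less Serpinb9, but less Pvr, only slightly more Nectin2 and no called change of Cd274. There 5 members were called higher and 2 lower of 9, against 63.8% of 14271 genes called, 31.8% higher and 32% lower, with 10.3% called and at least 2-fold. Cd80 passed the low-count filter there only through the sh3 libraries, where it is high. Groups did not overlap for 8 of 9 members, against 68.2% of genes. The median log2 change was 0.25 and the median absolute change 0.44, against 0.011 and 0.26 over all genes. OE_DSTYKwt cells had more Lgals9 and Serpinb9 and less Pvr, Nectin2 and Cd276 than empty pLENTI6 cells. This made 2 members higher and 3 lower of the 8 tested, Cd80 having too few counts, against 29.7% of 13975 genes called, 14.6% higher and 15.2% lower, with 2.54% called and at least 2-fold. For 6 of these 8 the groups did not overlap, against 46% of genes, and the medians were 0.061 and 0.21, against 0.0026 and 0.11 over all genes. Whether less RNA of a gene means fewer cells with it or less RNA per cell cannot be told apart in such bulk libraries. A CPM printed here was scaled over all 18 libraries and a fitted change over the 6 libraries of its experiment, so ratios of the printed values differ slightly from the fitted ones.

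**Figure D2:**
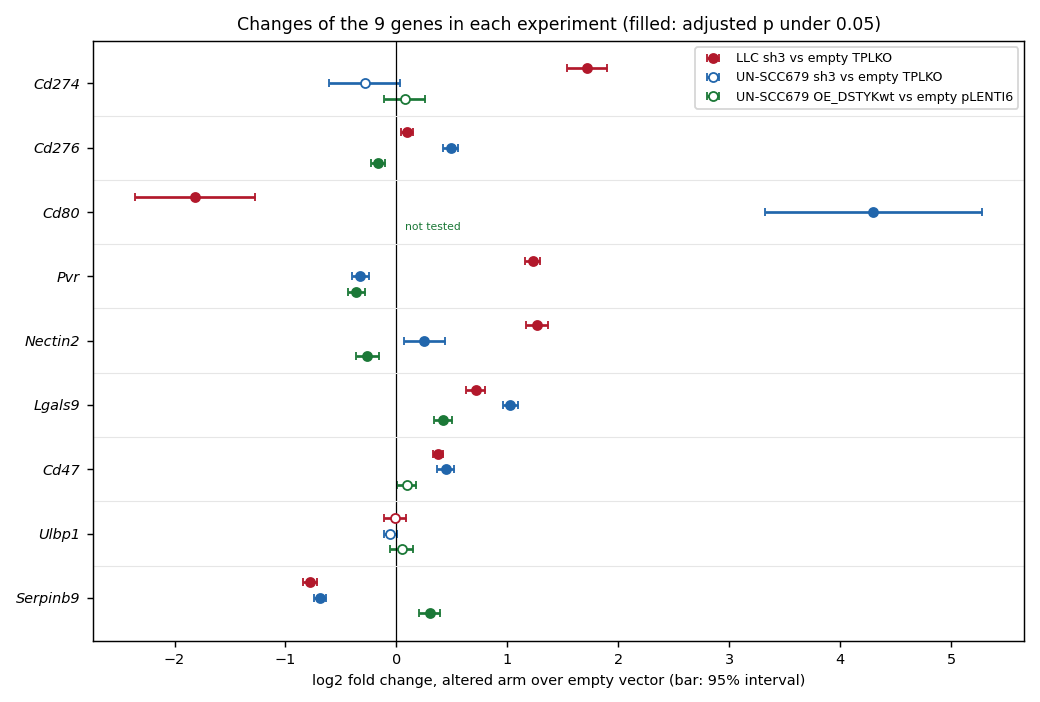
Fitted log2 fold change of each member in sh3 against empty TPLKO cells of LLC and of UN-SCC679 and in OE_DSTYKwt against empty pLENTI6 cells, with 95% intervals; filled points were called. Cd274, Pvr and Nectin2 lie above 1 in LLC only, and Cd80, untested in the pLENTI6 pair, has the widest intervals.

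Cd274 (ENSMUSG00000016496.7, GRCm38 chr19:29367455-29388095, plus strand) encodes the ligand of PD-1. It had 14.5, 14.8 and 13.2 CPM in the LLC sh3 libraries, against 4.49, 3.94 and 4.15 CPM in the LLC empty TPLKO libraries. Every sh3 library lay above every empty-vector library. The fitted log2 change was 1.72 (SE 0.082, adjusted p = 7.45e-10), a 3.29-fold difference and the largest rise among the members in LLC. In UN-SCC679 there were 4.07, 3.46 and 3.97 CPM in sh3 cells, against 5.14, 5.28 and 3.70 CPM in empty TPLKO cells. These groups overlapped, through the third empty TPLKO library, which was lower than the other two. The log2 change was -0.29 with a 95% interval of -0.61 to 0.033 (adjusted p = 0.107). Without the third empty TPLKO library it was -0.43, and called (adjusted p = 0.0095). In OE_DSTYKwt cells, 4.35, 4.22 and 4.08 CPM overlapped the 3.70, 4.07 and 4.22 CPM of empty pLENTI6 cells, with a log2 difference of 0.074 and an interval of -0.11 to 0.26. PD-L1's gene was thus changed by the test in LLC alone, and the sh3 effect in UN-SCC679 was lower than that in LLC by 2.0 on the log2 scale in the test of the difference itself (SE 0.17, adjusted p = 2.923e-08). All 6 tested genes within 250 kb of Cd274 were called higher in the LLC sh3 cells, with log2 changes of 0.19 to 1.49, and all 6 in UN-SCC679 sh3 cells, at 0.086 to 0.68. Among them was Jak2, a kinase of cytokine signalling, at a log2 change of 0.37 in UN-SCC679. Over all genes tested, 36.2% were called higher in LLC sh3 cells and 31.8% in UN-SCC679 sh3 cells. The median change of tested genes on chromosome 19 was 0.29 in UN-SCC679 sh3 cells. With each chromosome's median removed, the Cd274 change in UN-SCC679 was -0.57 (adjusted p = 0.00481). The part of this chromosome-wide level in the value of Cd274 was not tested otherwise.

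Cd276 (ENSMUSG00000035914.11, chr9:58524298-58555437, minus strand) encodes B7-H3, a surface protein found on many tumours whose receptor is not settled. The LLC sh3 libraries had 113, 108 and 108 CPM, and the LLC empty TPLKO libraries ran from 97.9 to 102 CPM. The groups did not overlap in CPM, though they did in TPM, and the log2 change was small, at 0.095 (SE 0.025, adjusted p = 0.00427). It was no longer called when transcript lengths entered the fit (adjusted p = 0.0908) or with limma on log2(TPM + 1) (adjusted p = 0.136). UN-SCC679 showed more of a difference, with 70.1, 71.6 and 69.6 CPM in sh3 cells, against 48.97, 51.9 and 50.9 CPM in empty TPLKO cells. The log2 change there was 0.49 (SE 0.031, adjusted p = 7.103e-08). OE_DSTYKwt cells had 49.1, 50.1 and 48.8 CPM, below the 55.8, 55.5 and 54.6 CPM of empty pLENTI6 cells, a log2 change of -0.17 (SE 0.028, adjusted p = 0.00193). Cd276 was therefore called higher in sh3 cells of both lines and lower in OE_DSTYKwt cells.

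Cd80 (ENSMUSG00000075122.5, chr16:38455561-38496335, plus strand) encodes B7-1, which binds CD28 and CTLA-4 on T cells. Its counts were small throughout and are given as such. The LLC sh3 libraries had 27, 20 and 30 counts, against 84, 90 and 81 counts in the LLC empty TPLKO libraries. Each sh3 library lay below each empty-vector library, and the fitted log2 change was -1.81 (SE 0.25, adjusted p = 2.223e-05). In UN-SCC679 the order was the other way, with 47, 35 and 45 counts in sh3 cells, against 3, 2 and 1 counts in empty TPLKO cells. From the 127 counts of sh3 cells and the 6 of empty TPLKO cells, the ratio per library size was 21.7, with an exact 95% interval of 9.70 to 60.2 that covers counting error only. The fitted log2 change of 4.30 (SE 0.45, adjusted p = 4.78e-06) rests on those 6 counts. On the log2(TPM + 1) scale it was 0.77, and -0.63 in LLC, where the gene's group means were at most 1.32 TPM. OE_DSTYKwt cells had 12, 4 and 3 counts and empty pLENTI6 cells 4, 3 and 4, which were too few for the test. Their ratio was 1.75, with a counting interval of 0.791 to 4.07. The 2 sh3 effects on Cd80 had opposite signs and differed by 6.12 on the log2 scale, UN-SCC679 minus LLC (SE 0.49, adjusted p = 1.61e-08).

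Pvr (ENSMUSG00000040511.14, chr7:19903578-19921160, minus strand) and Nectin2 (ENSMUSG00000062300.14, chr7:19716644-19750483, minus strand) are neighbours with 153 kb between them, and both encode adhesion proteins of the nectin family read by CD226 and TIGIT. Pvr had 113, 114 and 112 CPM in LLC sh3 cells, against 47.7, 48.6 and 45.0 CPM in LLC empty TPLKO cells. The libraries of each group were close together and far from those of the other, with a log2 change of 1.23 (SE 0.030, adjusted p = 1.66e-12). In UN-SCC679 Pvr had 45.3, 41.7 and 43.7 CPM in sh3 cells, against 54.6, 55.7 and 54.6 CPM in empty TPLKO cells. OE_DSTYKwt cells had 39.5, 41.1 and 38.2 CPM, against 50.3, 51.4 and 50.4 CPM in empty pLENTI6 cells. Pvr thus fell in both UN-SCC679 experiments, by 0.33 on the log2 scale in sh3 cells (SE 0.035, adjusted p = 6.951e-06) and by 0.36 in OE_DSTYKwt cells (SE 0.033, adjusted p = 4.698e-05), with all libraries of the altered cells below all of their empty vector. The difference of these effects, OE_DSTYKwt minus sh3, was -0.037 and was not called (adjusted p = 0.570). The sh3 effects on Pvr in the 2 lines, UN-SCC679 minus LLC, differed by -1.55 (SE 0.047, adjusted p = 1.263e-13).

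Nectin2 had 36.5, 37.8 and 34.8 CPM in LLC sh3 cells, against 14.7, 15.2 and 14.3 CPM in LLC empty TPLKO cells, a log2 change of 1.27 (SE 0.045, adjusted p = 4.824e-11). Its libraries in UN-SCC679 had 10.4, 10.7 and 10.3 CPM in sh3 cells and 9.38, 7.73 and 9.49 CPM in empty TPLKO cells. All sh3 libraries were the higher ones in both lines, but the step in UN-SCC679 was 0.25 (SE 0.085, adjusted p = 0.0219). It was no longer called without the second empty TPLKO library (adjusted p = 0.0899), without the second sh3 library (adjusted p = 0.0738), with a length offset (adjusted p = 0.0889) or with limma (adjusted p = 0.122). OE_DSTYKwt cells had 12.2, 12.5 and 12.4 CPM, below the 14.4, 14.7 and 15.3 CPM of empty pLENTI6 cells, a log2 change of -0.26 (SE 0.045, adjusted p = 0.00218). The sh3 effect in UN-SCC679 was lower than that in LLC by 1.01 on the log2 scale (SE 0.095, adjusted p = 1.105e-07). Of the 16 tested genes within 250 kb of Nectin2, Pvr among them, 7 were higher and 4 lower in LLC sh3 cells, with a median log2 change of 0.27. Over all genes tested there, 72.6% were called, 36.2% higher and 36.4% lower. Of the related genes Nectin1, Nectin3, Nectin4 and Cadm1, 3 were tested in LLC and 2 were called, both lower, Nectin1 at -0.47 (adjusted p = 1.276e-07) and Nectin3 at -0.28 (adjusted p = 6.277e-06).

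**Figure D3:**
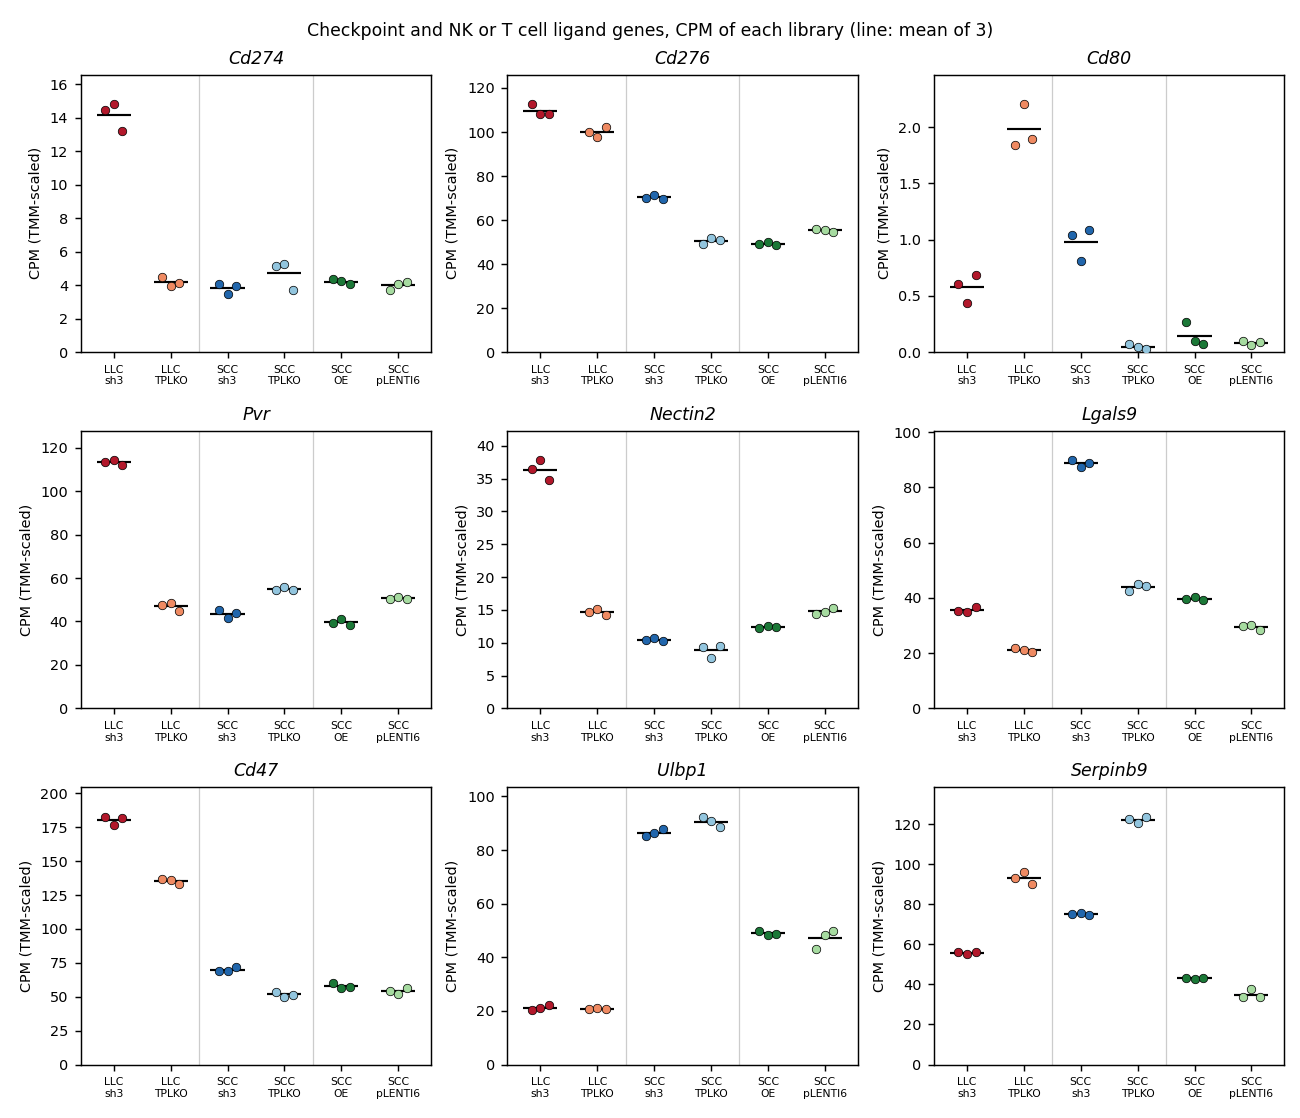
CPM of each member in every library (linear axis from 0), with a line at the mean of 3 and altered cells left of their empty vector; SCC stands for UN-SCC679, TPLKO and pLENTI6 for the empty vectors and OE for OE_DSTYKwt. Cd274, Pvr and Nectin2 set the LLC sh3 libraries apart from all others, and Lgals9 and Serpinb9 do not overlap between sh3 and empty TPLKO cells in either line.

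Lgals9 (ENSMUSG00000001123.15, chr11:78962974-78984946, minus strand), the gene of galectin-9, was the member called higher in all 3 experiments. LLC sh3 cells had 35.2, 34.9 and 36.6 CPM, against 21.7, 21.1 and 20.4 CPM in LLC empty TPLKO cells. UN-SCC679 sh3 cells had 89.8, 87.5 and 89.0 CPM, against 42.5, 44.9 and 44.2 CPM in empty TPLKO cells. OE_DSTYKwt cells had 39.6, 40.2 and 39.1 CPM, against 30.0, 30.3 and 28.3 CPM in empty pLENTI6 cells. The groups did not overlap in any of the pairs, neither with sh3 nor with OE_DSTYKwt. The log2 changes were 0.72 in LLC sh3 cells (SE 0.039, adjusted p = 3.054e-09), 1.03 in UN-SCC679 sh3 cells (SE 0.030, adjusted p = 8.482e-11) and 0.42 in OE_DSTYKwt cells (SE 0.037, adjusted p = 3.528e-05). The effect of OE_DSTYKwt was smaller than that of sh3 in UN-SCC679, with a difference of -0.61 (adjusted p = 5.983e-08), and the sh3 effect was larger in UN-SCC679 than in LLC by 0.32 (SE 0.048, adjusted p = 2.898e-05). The promoter of Lgals9 printed above is one of the pair that hold ISRE letters, the other being that of Serpinb9.

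Cd47 (ENSMUSG00000055447.19, chr16:49800533-49915010, plus strand) encodes the surface protein that signals to phagocytes through SIRPα. It had 183, 176 and 182 CPM in LLC sh3 cells, against 137, 136 and 133 CPM in LLC empty TPLKO cells. In UN-SCC679 the sh3 libraries had 68.7, 68.9 and 71.7 CPM, against 53.7, 49.9 and 51.4 CPM in empty TPLKO libraries. The log2 changes were 0.44 in UN-SCC679 (SE 0.034, adjusted p = 3.76e-07, beside a median of 0.16 for genes of chromosome 16) and 0.38 in LLC (SE 0.020, adjusted p = 2.546e-09), with a difference of 0.071 whose 95% interval ran from -0.0090 to 0.15 (adjusted p = 0.119). On scales that take account of transcript length the LLC step was smaller, at 0.20 with a length offset (adjusted p = 0.000425) and 0.19 with limma on log2(TPM + 1) (adjusted p = 0.00138). OE_DSTYKwt cells had 60.2, 56.5 and 57.1 CPM and empty pLENTI6 cells 54.1, 52.2 and 56.4 CPM. The OE_DSTYKwt libraries were all higher, but the log2 change of 0.092 was not called (95% interval 0.0062 to 0.18, adjusted p = 0.10). It was smaller than the sh3 effect in UN-SCC679 by 0.35 on the log2 scale (adjusted p = 5.566e-05). With the chromosome medians removed this difference was -0.13 and was not called (adjusted p = 0.0526).

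Ulbp1 (ENSMUSG00000079685.10, chr10:7440362-7473638, minus strand), the NKG2D ligand of the set, was the member with no called change in any of the 3 experiments. LLC sh3 cells had 20.5, 20.99 and 22.1 CPM, within reach of the 20.7, 21.2 and 20.7 CPM of LLC empty TPLKO cells, with a log2 difference of -0.016 and a 95% interval of -0.11 to 0.083. UN-SCC679 sh3 cells had 85.3, 86.4 and 87.8 CPM, just under the 92.5, 90.7 and 88.7 CPM of empty TPLKO cells, with a difference of -0.056 and an interval of -0.12 to 0.0030. Without the third empty TPLKO library it was -0.076 and called (adjusted p = 0.0433). OE_DSTYKwt cells had 49.7, 48.4 and 48.8 CPM and empty pLENTI6 cells 43.3, 48.5 and 49.9 CPM, a difference of 0.048 with an interval of -0.055 to 0.15. Other NKG2D ligands were called in part. Of 8 listed, 4 were in the files. In LLC sh3 cells 3 were tested and 2 called, both lower, against 72.6% of all genes called. In UN-SCC679 sh3 cells 2 were tested and 2 called, both higher, against 63.8%. In the test of the difference of the sh3 effects between the lines, 4 were tested and 0 called, against 60%. Raet1d and Raet1e, tested in LLC, where they averaged 17.01 and 30.2 TPM in sh3 cells against 20.2 and 34.4 TPM in empty TPLKO cells, were lower by 0.22 and 0.12 on the log2 scale. H60b and H60c, tested in UN-SCC679, were higher in sh3 cells, by 1.35 (adjusted p = 3.908e-07) and 0.95 (adjusted p = 0.00618), H60b averaging 12.7 TPM in sh3 cells and 5.03 TPM in empty TPLKO cells.

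Serpinb9 (ENSMUSG00000045827.10, chr13:33003250-33017957, plus strand) was called lower in sh3 cells of both lines and higher in OE_DSTYKwt cells. LLC sh3 cells had 56.3, 55.3 and 56.2 CPM, against 93.3, 96.0 and 90.3 CPM in LLC empty TPLKO cells. UN-SCC679 sh3 cells had 75.2, 75.9 and 74.5 CPM, against 123, 121 and 124 CPM in empty TPLKO cells. OE_DSTYKwt cells had 43.4, 42.9 and 43.1 CPM, against 33.5, 37.6 and 33.8 CPM in empty pLENTI6 cells. No pair of groups overlapped, and the sign in OE_DSTYKwt cells was opposite to that in sh3 cells. The log2 changes were -0.77 in LLC sh3 cells (SE 0.029, adjusted p = 7.508e-11), -0.69 in UN-SCC679 sh3 cells (SE 0.024, adjusted p = 3.28e-10) and 0.30 in OE_DSTYKwt cells (SE 0.043, adjusted p = 0.0007001). OE_DSTYKwt and sh3 effects differed by 0.99 (SE 0.050, adjusted p = 7.183e-10). The difference between the lines, UN-SCC679 minus LLC, was 0.088 (SE 0.035, adjusted p = 0.0392), a call that was lost in 11 of the 12 fits that each left out a library. Serpinb9 has close relatives in a cluster on chromosome 13, and kallisto shares reads among like sequences, so its count and theirs are uncertain to that extent. Of those relatives Serpinb9b fell with it in sh3 cells, by 0.70 in LLC (adjusted p = 1.609e-11) and by 1.33 in UN-SCC679 (adjusted p = 4.264e-08), whereas Serpinb6b was higher by 0.99 in LLC (adjusted p = 4.463e-08) and lower by 0.63 in UN-SCC679 (adjusted p = 3.521e-08).

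**Figure D4:**
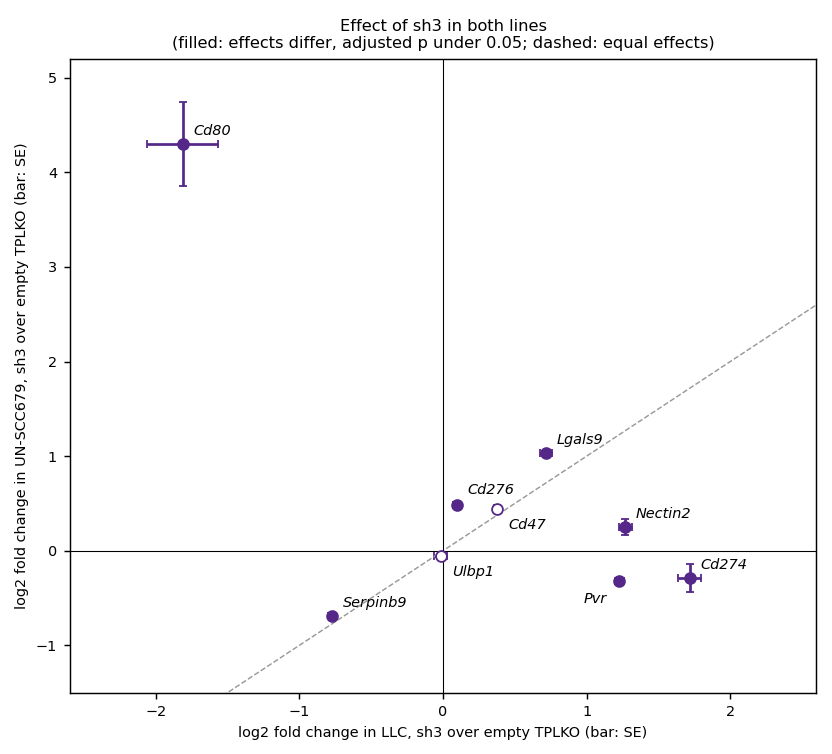
Log2 fold change of each member in sh3 against empty TPLKO cells of UN-SCC679 (vertical axis) and of LLC (horizontal axis), with error bars of 1 SE and a dashed line of equal effects; filled points are members whose effects differed between the lines by the interaction test. Lgals9, Cd47, Cd276, Nectin2 and Serpinb9 lie on the same side of 0 in both lines, and Pvr, Cd80 and Cd274, which was not called in UN-SCC679, on opposite sides.

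Across the tests of the difference between the lines, 7 of 9 members were called, 4 with a larger value in UN-SCC679 and 3 with a larger one in LLC, against 60% of 15399 genes, 31.9% and 28.1%. At least 2-fold differences between the effects were seen for Cd274, Pvr, Nectin2 and Cd80, where 15.5% of all genes had one. In the test of OE_DSTYKwt against sh3 effects in UN-SCC679, 6 of 9 members were called, 1 higher (Serpinb9) and 5 lower (Nectin2, Lgals9, Cd47, Cd80 and Cd276), against 51.9% of 14975 genes, 25.8% higher and 26.1% lower, with 9.01% called and at least 2-fold. Cd80 was too low for the test in the pLENTI6 pair and entered this one through the UN-SCC679 sh3 libraries, with 127 counts against 6 in empty TPLKO cells, so its call rests on those libraries. Its value of -3.53 was -0.71 on the log2(TPM + 1) scale. Cd276, Nectin2 and Serpinb9 were called in both UN-SCC679 experiments with opposite signs. Pvr and Lgals9 were called in both with the same sign. The Nectin2 call in sh3 cells was lost in 2 of 6 fits that each left out a library and in 2 of 9 other settings. Shares of all genes called in both experiments, by sign, were not computed, so these signs are description only.

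The empty-vector cells themselves differed in these genes. Between UN-SCC679 empty TPLKO and LLC empty TPLKO cells, 8 of 9 members were called, 4 higher and 4 lower, against 82.9% of 14351 genes, 42% higher and 40.9% lower, and the groups did not overlap for 8 members, against 84.2% of genes. Ulbp1 was 4.35-fold higher in UN-SCC679, with a log2 difference of 2.12 (adjusted p = 8.512e-14), beside a median of 0.44 for genes of chromosome 10. Lgals9 was higher by 1.06 on the log2 scale, Serpinb9 by 0.39 and Pvr by 0.22, while Cd47 was lower by 1.39, Cd276 by 0.98 and Nectin2 by 0.73. Cd80, with 6 counts in UN-SCC679 empty TPLKO cells and 255 in LLC empty TPLKO cells, had a ratio of 0.0236 with a counting interval of 0.00859 to 0.0521, and passed the low-count filter through LLC alone. Cd274 did not pass the test, at 0.17 (adjusted p = 0.292), except without the third UN-SCC679 library, at 0.31 (adjusted p = 0.0365). Cell line and mouse strain cannot be told apart in this comparison.

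Within UN-SCC679, empty pLENTI6 cells differed from empty TPLKO cells in 6 of 8 tested members, 2 higher and 4 lower, against 68.7% of 14080 genes, 35.4% higher and 33.3% lower, and the groups did not overlap for 6, against 73.3% of genes. The difference in Serpinb9, -1.81 on the log2 scale (adjusted p = 5.12e-10), was larger than its change in either UN-SCC679 experiment, with 33.5, 37.6 and 33.8 CPM in empty pLENTI6 cells, against 123, 121 and 124 CPM in empty TPLKO cells. Ulbp1 was lower by 0.94 (adjusted p = 9.486e-08) and Lgals9 by 0.57, while Nectin2 was higher by 0.74 (adjusted p = 2.073e-05). Pvr at -0.12 and Cd276 at 0.13 differed little, and Cd274 and Cd47 did not pass the test. Without the third empty TPLKO library Cd274 was called, at -0.39 (adjusted p = 0.0129). Median log2 differences of the genes of a chromosome ran from -0.15 (chromosome 8) to 0.39 (chromosome 19) in this comparison. Vector, doxycycline and any other difference between the cell populations cannot be told apart here. Each experiment was read against its own empty vector for that reason.

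Estimated shares of transcripts are given as a description for genes with several transcripts, since the exact permutation test cannot give a p below 0.1 with 3 against 3 libraries. Nectin2-202, which encodes a protein of 467 residues, made up 51.8% ± 0.908 of Nectin2 in LLC sh3 cells and 36.9% ± 1.17 in LLC empty TPLKO cells (SD, n = 3 each, exact permutation p = 0.1), and Nectin2-201, which encodes 530 residues, made up the rest in both. In UN-SCC679 the share of Nectin2-202 was 57.3% ± 0.306 in sh3 cells and 46.5% ± 5.04 in empty TPLKO cells. The shorter form thus had a larger share in sh3 than in empty TPLKO cells of both lines. In UN-SCC679 the share of Nectin2-201 overlapped, at 42.7% ± 0.306 in sh3 cells and 49.6% ± 8.80 in empty TPLKO cells. Nectin2-202 had 51.8% ± 0.401 in OE_DSTYKwt cells, below the 53.4% ± 0.352 of empty pLENTI6 cells without overlap. Cd47-201, with 324 residues, made up 48.3% ± 1.55 in LLC sh3 cells and 39.99% ± 1.79 in LLC empty TPLKO cells, and 30.4% ± 2.01 in UN-SCC679 sh3 cells and 24.7% ± 1.87 in empty TPLKO cells. In OE_DSTYKwt cells it overlapped with the empty vector. For Cd80, Cd80-201, whose start site is the one of the promoter printed above, averaged 54.9% ± 16.96 in LLC sh3 cells and 20.4% ± 11.6 in LLC empty TPLKO cells, on the few counts given. Cd274 has 1 listed transcript, and Lgals9-202 made up 94.6% to 97.8% of Lgals9 in all groups and overlapped in each of the 3 comparisons, as did Serpinb9-201. Cd47-207 was listed at 0 in the libraries of every TPLKO group, and averaged 20.1% in OE_DSTYKwt cells and 15.1% in empty pLENTI6 cells, while Cd47-204 took 20.6% to 28.8% in the TPLKO groups and 3.41% and 2.87% in OE_DSTYKwt and empty pLENTI6 cells.

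**Figure D5:**
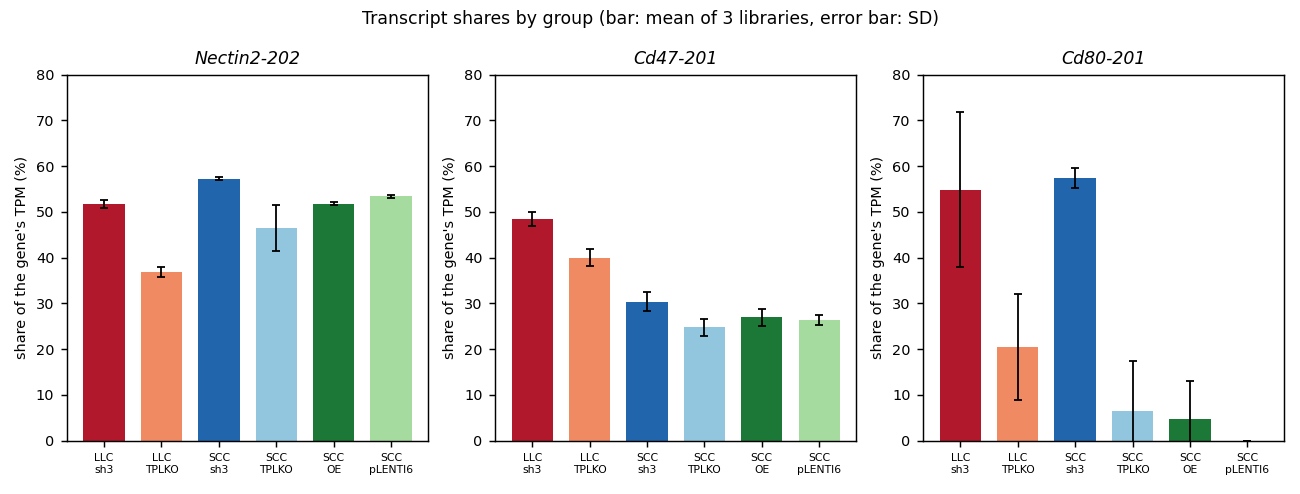
Share of the gene's TPM, in percent, taken by Nectin2-202, Cd47-201 and Cd80-201 in each group, as bars at the mean of 3 libraries with error bars of 1 SD; SCC stands for UN-SCC679, TPLKO and pLENTI6 for the empty vectors and OE for OE_DSTYKwt, altered cells left of their empty vector. Nectin2-202 takes 51.8% in LLC sh3 cells and 36.9% in LLC empty TPLKO cells.

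Related genes, listed by role, moved as follows in LLC sh3, UN-SCC679 sh3 and OE_DSTYKwt cells against their empty vectors, where 72.6%, 63.8% and 29.7% of all genes were called. Of 17 further checkpoint ligands and enzymes, 5 were higher and 2 lower of 9 tested in LLC, 6 and 3 of 12 in UN-SCC679, and 1 and 2 of 12 with OE_DSTYKwt. Their median log2 changes were 0.52, 0.39 and -0.033, against 0.0099, 0.011 and 0.0026 over all genes tested. Nt5e, which makes adenosine, was the largest in LLC, at 1.86 (adjusted p = 1.279e-10), followed by Tnfrsf14, the ligand of BTLA, at 0.96 (adjusted p = 0.00242) and Clec2d, an NK receptor ligand, at 0.83 (adjusted p = 0.00785). Clec2d at 3.40 (adjusted p = 3.202e-05), Cd200 at 3.14 (adjusted p = 2.364e-06) and Vsir, the gene of VISTA, at 2.47 (adjusted p = 1.997e-06) led in UN-SCC679 sh3 cells, from low counts in its empty TPLKO cells (13, 25 and 58 over 3 libraries). With OE_DSTYKwt the largest was Entpd1, another enzyme of the adenosine pathway, at -1.0 (adjusted p = 0.0117).

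Of the nectin relatives, 2 of 3 tested were lower in UN-SCC679 sh3 cells, Cadm1, the ligand of CRTAM, at -2.6 (adjusted p = 2.713e-06) and Nectin1 at -1.13 (adjusted p = 0.00232), and 1 of 3 with OE_DSTYKwt, where Cadm1 had 5 counts over the 3 OE_DSTYKwt libraries and 391 over those of empty pLENTI6. Of costimulatory and adhesion genes, 3 were higher and 1 lower of 5 in LLC, with Cd40 at 1.97 (adjusted p = 4.179e-06), Vcam1 at 1.09 (adjusted p = 1.73e-13) and Tnfsf4, the OX40 ligand, lower with 2 counts over the LLC sh3 libraries and 69 over those of LLC empty TPLKO. Vcam1 was the called gene of that list in UN-SCC679, at 0.29 in sh3 cells (1 of 3 tested) and 0.20 in OE_DSTYKwt cells (1 of 4). Of the NKG2D ligands, 1 of 2 was called with OE_DSTYKwt, H60b at 0.35 (adjusted p = 0.0464). Serpin relatives had 1 higher and 2 lower of 7 in LLC, 2 and 2 of 4 in UN-SCC679 sh3, with Serpinb1a at 1.54 (adjusted p = 4.765e-08), and 2 and 0 of 3 with OE_DSTYKwt, so that 3 of 7 in LLC was a smaller share than that of all genes called.

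Of 15 genes that control PD-L1, 8 were higher and 4 lower in LLC sh3 cells, 10 and 4 in UN-SCC679 sh3 cells and 2 and 3 in OE_DSTYKwt cells, with median log2 changes of 0.17, 0.20 and -0.019, against 0.0099, 0.011 and 0.0026 over all genes tested. Over all genes tested 72.6%, 63.8% and 29.7% were called. Ifngr2, a chain of the interferon gamma receptor, was the largest in both sh3 comparisons, at 0.92 in LLC (adjusted p = 5.611e-10) and 0.77 in UN-SCC679 (adjusted p = 3.861e-07). Irf2 at 0.61 and Qpctl at -0.58 followed in LLC, and Cmtm6, which stabilises PD-L1, at 0.53 and Irf1 at -0.50 in UN-SCC679. Cmtm6 was called higher in LLC too, at 0.44 (adjusted p = 2.228e-08), a value added after it was seen. Ifngr2 and Cmtm6, higher in sh3 cells of both lines, are picked from a list with 4 genes called lower in each line. How the listed genes relate to Cd274 was not tested.

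Markers of other cell identities moved beside these results. The summed TPM of 5 fibroblast genes was 26.2 to 27.0 in LLC sh3 cells, against 17.8 to 19.5 in LLC empty TPLKO cells, 408 to 420 in UN-SCC679 sh3 cells, against 231 to 234 in empty TPLKO cells, and 68.4 to 68.6 in OE_DSTYKwt cells, against 49.3 to 56.7 in empty pLENTI6 cells. That of 5 epithelial genes was 41.3 to 42.7 in LLC sh3 cells, against 39.9 to 45.6 in LLC empty TPLKO cells, 338 to 355 in UN-SCC679 sh3 cells, against 540 to 565 in empty TPLKO cells, and 763 to 802 in OE_DSTYKwt cells, against 931 to 967 in empty pLENTI6 cells. The 5 squamous genes summed to 49 to 52.4 TPM in UN-SCC679 sh3 cells, against 31.8 to 37.3 in empty TPLKO cells, and to 64.1 to 66.0 in OE_DSTYKwt cells, against 68.0 to 73.6 in empty pLENTI6 cells, and were at most 0.102 in LLC. Of the 3 squamous genes tested in each UN-SCC679 experiment, 2 were called higher and 0 lower in sh3 cells, and 2 higher and 1 lower in OE_DSTYKwt cells, where the sum was lower while the median log2 change was 0.74. Of the fibroblast genes tested, 3 were called higher and 2 lower of 5 in LLC sh3 cells, 4 higher of 4 in UN-SCC679 sh3 cells and 3 higher of 3 in OE_DSTYKwt cells. Of the epithelial genes, 0 were higher and 1 lower of 3 in LLC sh3 cells, 1 and 2 of 3 in UN-SCC679 sh3 cells and 0 and 2 of 2 in OE_DSTYKwt cells. Over all genes tested, 72.6% were called in LLC sh3 cells, 63.8% in UN-SCC679 sh3 cells and 29.7% in OE_DSTYKwt cells. The part of these markers in the results of the members was not tested. The 10 leukocyte markers summed to 8.27 to 9.20 TPM in LLC sh3 cells, against 6.39 to 8.77 in LLC empty TPLKO cells, to 4.04 to 5.23 in UN-SCC679 sh3 cells, against 3.42 to 3.82 in empty TPLKO cells, and to 6.77 to 8.03 in OE_DSTYKwt cells, against 6.16 to 7.15 in empty pLENTI6 cells. The sums overlapped in the LLC and OE_DSTYKwt experiments and not between UN-SCC679 sh3 and empty TPLKO cells.

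Over the 18 libraries, the genes most like Cd274 in log2 CPM were Pim1, a kinase gene (Pearson r = 0.974), Sacm1l (0.971) and Rad18 (0.97). Those most like Pvr were Slc25a25 (0.966), P4ha1 (0.964) and Procr (0.962), and those most like Nectin2 were Zswim1 (0.984), Arpc5l (0.984) and 4930402H24Rik (0.982). For Serpinb9 they were Ykt6 (0.972), Zfp317 (0.967) and Sec16a (0.964). The points share cell lines and experiments, with 3 replicates of each of 6 groups, so these values describe the pattern over groups.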

How the data were processed

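Per the labels' protocols, the Illumina TruSeq Stranded mRNA kit was used, with 75-base NextSeq runs, single-end and paired-end both being named. The tools named in the submitters' processing notes are kallisto and sleuth, and the build is mm10; versions and the strand setting were not given in the sources used here. The authors deposited, per the file headers, estimated counts per transcript, not normalized and shared by kallisto among like transcripts, with effective lengths beside them as other values. The deposited normalized values were not used.

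Of 118489 transcripts, 116816 matched GENCODE M21 (GRCm38, the same assembly as mm10). The 1673 others held 0.515% to 0.593% of each library and stayed out. Estimated counts were summed per gene, rounded, scaled by TMM and tested in R 4.3.3 with edgeR 4.0.16 (quasi-likelihood test, filterByExpr with a minimum count of 10 and total of 15, Benjamini-Hochberg adjustment over all genes). Each comparison used only its groups' libraries, and differences between effects were interactions on 12 libraries. SEs came from the F statistic, and TPM from counts and effective lengths. The fits were tested on simulated counts. Processed pseudogenes on the opposite strand lie within Pvr and Ulbp1 and had at most 2.02% and 2.54% of those genes' counts. Counting intervals cover counting error only, and p-values only reflect how libraries of a group vary, a variation that may be technical.

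Alternatives were DESeq2 1.42.0, limma 3.58.1 on log2(TPM + 1), other scalings and filters, a length offset, a chromosome offset, a replicate block and each library left out. Groups were taken from the titles. The members and gene lists were chosen with earlier results of these data known. Every member is named, with at most 3 called genes of each related list and, for Cd274, Pvr, Nectin2 and Serpinb9, the 3 protein-coding genes most like it; neighbours lie within 250 kb, at most 3 named per member, and the value of Cmtm6 in LLC was added after it was seen. One result is not reported here. Promoter sequence is from RefSeq.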

Additional observations from a re-analysis of the deposited data

Results flagged for a closer look

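Differences between effects were the flagged results, each by the interaction test of edgeR over all genes. Values are log2, the sh3 effect in UN-SCC679 minus that in LLC. They were -2.0 for Cd274, -1.55 for Pvr, -1.01 for Nectin2, 0.32 for Lgals9, 6.12 for Cd80, 0.40 for Cd276 and 0.088 for Serpinb9. The first 3 genes were higher in LLC sh3 cells by more than 2-fold, and in UN-SCC679 sh3 cells Pvr was lower and Cd274 not called. The value of Cd80 rests on 6 counts in UN-SCC679 empty TPLKO cells, and that of Serpinb9 had an adjusted p between 0.00887 and 0.404 over the alternatives.

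For the OE_DSTYKwt effect minus the sh3 effect, both in UN-SCC679, the values were -0.52 for Nectin2, -0.61 for Lgals9, -0.35 for Cd47, -3.53 for Cd80, -0.66 for Cd276 and 0.99 for Serpinb9. Cd80 was tested here only through the UN-SCC679 sh3 libraries, with 19 and 11 counts in OE_DSTYKwt and empty pLENTI6 cells, and its value ran from -3.73 to -0.71 over the other settings. These experiments had different cell populations and empty vectors and, per the labels, doxycycline in the sh3 experiment only. None of this can be told apart from the direction of the DSTYK change. The cause of any of these differences was not tested.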

How the results depend on the processing

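Of 1021 recomputed log2 changes of members, 981 kept their side of the threshold, 26 lost a call, 13 gained one and 1 turned in sign with a call in either fit. Changes of sign between values that were both not called are among the 981. An example is Ulbp1 in LLC sh3 cells, at -0.022 to 0.086 over the other settings. The one that turned was the difference of the sh3 effects on Cd47 between the lines, not called in the report, which was -0.10 (adjusted p = 0.0324) with the chromosome medians removed; with library size alone it was 0.098 (adjusted p = 0.0389). Cd274 between UN-SCC679 groups depended on the third empty TPLKO library: without it the OE_DSTYKwt effect minus the sh3 effect was 0.51 (adjusted p = 0.00709), empty pLENTI6 minus empty TPLKO was -0.39 (adjusted p = 0.0129) and UN-SCC679 minus LLC empty TPLKO was 0.31 (adjusted p = 0.0365). With chromosome medians removed these were 0.71, -0.63 and 0.46, all called. Ulbp1 in UN-SCC679 sh3 cells was called without that library (-0.076, adjusted p = 0.0433), and its OE_DSTYKwt minus sh3 difference was called with a length offset (0.24, adjusted p = 0.0480) or without the third empty pLENTI6 library (0.15, adjusted p = 0.0361). Cd47 with OE_DSTYKwt was called with chromosome medians removed (0.13, adjusted p = 0.0304), and its difference from the sh3 effect was then not called (-0.13, adjusted p = 0.0526). The share of calls that were higher over all genes moved most with OE_DSTYKwt, 49% in the report's fit and 58.9% with limma, and in UN-SCC679 sh3 cells, 49.8% and 58.7% with library size alone. The causes were not tested.

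Members called with each library left out numbered 8 in LLC sh3, 6 to 9 in UN-SCC679 sh3, 5 with OE_DSTYKwt, 6 to 7 for each of the tests between effects, 8 to 9 between the lines and 6 to 7 between the empty vectors. The count over all genes with OE_DSTYKwt ran from 2876 to 4938, the highest without the first empty pLENTI6 library. Replicate numbers showed little pairing of the samples, with correlations of same-numbered deviations of -0.0839 to 0.0955. In UN-SCC679 TPLKO every library matched its own number best (0.0188 to 0.0591), so a weak pairing there is not excluded. With the replicate block, 8, 7 and 5 members were called in LLC sh3, UN-SCC679 sh3 and OE_DSTYKwt, 6 in each test between effects, Serpinb9 no longer differing between the lines by the test (adjusted p = 0.0757), and 3771 genes in all with OE_DSTYKwt. Taken from counts, 45 differences of transcript shares stayed within 1 SD and 15 moved by more. Depth limits Cd80, with 6 counts in UN-SCC679 empty TPLKO cells.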
